A study of Homo sapiens with 18 samples.

Results

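The genes described here are 44 members of the pathways that mend broken or crosslinked DNA, out of 58825 genes counted in OVCAR-3 cells, an established cell line of high-grade serous ovarian cancer. The members were chosen by name and found through their Ensembl identifiers, and all 44 were found and passed the filter on low counts at both times. They comprised 24 recombination genes, 12 Fanconi genes and 8 end joining genes. Cells were treated with DMSO, with 1 µM i-BET858 or with 1 µM i-BET151 for 4 or 24 h, with 3 libraries in each of the 6 groups. All groups were the same cell line, treated in stripped medium, so they describe 1 line in culture and not a tumour. Both drugs are inhibitors of the BET proteins, which bind acetylated histones and help to start transcription.

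Homologous recombination mends a double-strand break by resecting its ends and copying the sister chromatid, with BRCA1, PALB2 and BRCA2 among the mediators of strand exchange. The Fanconi proteins recognise crosslinked DNA at stalled forks and call in nucleases to unhook it, while end joining ligates broken ends directly, either through the Ku proteins XRCC5 and XRCC6 with XRCC4 and LIG4, or through the polymerase encoded by POLQ. High-grade serous ovarian cancer is known for defects in recombination and for its response to inhibitors of PARP.

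Library totals lay between 27323969 and 46299994 counts, and the smallest count of a member in any library was 9, above the 3 counts taken as the floor. CPM stands for counts scaled to a common library size after TMM normalisation, and a member was called when its Benjamini-Hochberg adjusted p over all genes tested was below 0.05 in edgeR's quasi-likelihood test. Replicate 3 of every group had counts in 17817 to 20642 genes, against 23674 to 24947 genes in the other libraries, so the counts of called members are also given without it. The shares of all genes given beside the counts are those of the main fits. They were not taken for the alternative fits, so the counts of those fits cannot be set against them. Summed markers of ovarian serous carcinoma, such as PAX8 and MUC16, lay between 8910 and 10213 CPM with DMSO at 4 h, 11913 and 12379 CPM with i-BET858 and 9890 and 10464 CPM with i-BET151. At 24 h they lay between 8922 and 10269 CPM with DMSO and lower with the drugs, at 7024 to 7297 and 6975 to 7387 CPM, and the part of this shift in the members' differences was not tested. By contrast, the summed leukocyte markers lay between 0.0582 and 3.23 CPM in all groups and the summed fibroblast markers between 21.3 and 50.6 CPM, nearly all of it COL1A1. The 4 endothelial markers summed to 3.38 to 6.63 CPM with DMSO at 4 h and 9.23 to 15.9 CPM with i-BET858, of which 1 was called higher, KDR, which was 7.99-fold higher (adjusted p = 2e-04), while PECAM1 and CDH5 reached at most 0.365 and 0.398 CPM in these libraries. With i-BET151 at 4 h the endothelial sum was 4.58 to 12.4 CPM. At 24 h it was 3.67 to 7.04 CPM with DMSO, 2.17 to 3.45 CPM with i-BET858 and 1.73 to 5.76 CPM with i-BET151. The study calls the libraries of a group biological replicates, but how their cultures were separated was not stated, so p-values measure the spread between these libraries, which may be technical. In RNA of whole cultures, fewer cells that express a gene and less RNA per cell cannot be told apart.

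Because BET proteins act at promoters, the bases before the transcription start are shown first for 13 members that the results turn on, as far as they lay outside annotated exons. They come from RefSeq on GRCh38.p14, are written from 5′ to 3′ on the gene's strand in lower case, and capitals mark the letters CCAAT or their reverse complement ATTGG, known as the CCAAT box. The first 9 belong to genes called lower after 4 h of i-BET858, of which FANCM was called higher after 24 h, and the last 4 belong to genes called higher after 24 h. The letters lay in 5 of the first 9 windows and in none of the last 4. These counts cannot be compared, since the genes were picked and the windows differ in length and distance from the start. That of FANCB holds 64 bases at −250 to −187 and that of FANCM 120 bases at −120 to −1. XRCC3, also called higher after 24 h, is not printed, and its promoter held the letters.
RAD51D, - strand, chr17:35119861-35119980: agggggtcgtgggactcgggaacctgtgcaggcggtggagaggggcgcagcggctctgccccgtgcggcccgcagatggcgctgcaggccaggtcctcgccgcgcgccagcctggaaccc
FANCM, + strand, chr14:45135810-45135929: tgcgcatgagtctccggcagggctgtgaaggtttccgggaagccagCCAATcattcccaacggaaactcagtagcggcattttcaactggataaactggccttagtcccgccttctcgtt
PALB2, - strand, chr16:23641322-23641441: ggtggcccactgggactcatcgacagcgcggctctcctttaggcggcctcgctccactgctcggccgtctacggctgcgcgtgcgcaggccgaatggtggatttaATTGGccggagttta
RIF1, + strand, chr2:151409763-151409882: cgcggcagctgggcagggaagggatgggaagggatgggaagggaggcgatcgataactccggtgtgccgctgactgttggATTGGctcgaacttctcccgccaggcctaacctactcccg
BLM, + strand, chr15:90717226-90717345: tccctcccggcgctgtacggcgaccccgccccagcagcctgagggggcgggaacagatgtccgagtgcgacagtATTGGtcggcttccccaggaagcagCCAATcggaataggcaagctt
MRE11, - strand, chr11:94493886-94493978: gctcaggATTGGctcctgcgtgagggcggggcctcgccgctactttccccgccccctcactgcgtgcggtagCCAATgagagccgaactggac
TP53BP1, - strand, chr15:43510729-43510848: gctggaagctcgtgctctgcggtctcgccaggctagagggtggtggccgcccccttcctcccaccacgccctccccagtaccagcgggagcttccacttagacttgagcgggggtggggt
XRCC2, - strand, chr7:152676194-152676313: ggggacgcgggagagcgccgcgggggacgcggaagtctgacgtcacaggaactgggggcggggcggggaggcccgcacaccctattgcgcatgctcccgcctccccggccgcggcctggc
RAD51AP1, + strand, chr12:4538678-4538797: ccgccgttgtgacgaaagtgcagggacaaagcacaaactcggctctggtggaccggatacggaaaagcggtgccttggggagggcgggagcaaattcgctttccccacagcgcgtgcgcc
SLX4, - strand, chr16:3611607-3611726: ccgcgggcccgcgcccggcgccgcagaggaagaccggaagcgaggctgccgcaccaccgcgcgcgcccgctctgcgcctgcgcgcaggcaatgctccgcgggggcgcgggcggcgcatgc
FANCB, - strand, chrX:14873256-14873319: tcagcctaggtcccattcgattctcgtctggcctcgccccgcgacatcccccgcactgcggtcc
BRCA2, + strand, chr13:32315385-32315504: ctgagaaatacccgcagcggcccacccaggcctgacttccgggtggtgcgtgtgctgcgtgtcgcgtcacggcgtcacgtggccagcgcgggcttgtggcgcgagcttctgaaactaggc
FANCE, + strand, chr6:35452218-35452337: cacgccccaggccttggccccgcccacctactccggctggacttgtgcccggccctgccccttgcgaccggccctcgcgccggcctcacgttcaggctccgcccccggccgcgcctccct

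A RefSeq promoter of 250 bases before to 50 bases after the start was at hand for 38 of the 44 members, and the letters CCAAT on either strand lay in 17 of them (44.7%), against 35.7% of all 27305 promoters. Among the members called lower after 4 h of i-BET858, 9 of 14 with a promoter held them, and after 24 h 7 of 12 members called lower and 2 of 7 called higher (FANCM and XRCC3) held them. The whole promoters of TP53BP1 and RAD51AP1 held them nearer the start than the bases printed, whereas those of RAD51D and XRCC2 did not. The E2F letters TTTGGCGC, TTTCGCGC, TTTCCCGC or TTTGCCGC lay in the promoters of EXO1, FANCD2, XRCC2, FANCC, FANCA and XRCC6, which are 15.8% of the members' promoters against 3.33% of all. The letters TTTGAA, known as the CHR, lay in 13.2% of the members' promoters and 15.4% of all. None of the strings searched contains another, the shares were described without a test, and a match is a string of letters and not a measured binding site.

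In DMSO the levels of the members spanned a wide range. Per kilobase of the canonical transcript, XRCC6 stood first at 218 ± 35.8 CPM (SD, n = 3) at 4 h, followed by XRCC5 at 188 ± 16.8 CPM, and the SD ranges of these Ku genes overlapped. PRKDC, the kinase that binds Ku on broken ends, came next at 32.0 ± 8.30 CPM per kilobase and then NBN at 20.9 ± 2.06, without overlap of their spreads. FANCB at 1.19 ± 0.0867, RAD54B at 0.792 ± 0.0358, RAD51D at 0.452 ± 0.0677 and RAD50 at 0.360 ± 0.0695 CPM per kilobase closed the order. At 24 h the SD ranges of XRCC6 at 218 ± 1.84 and XRCC5 at 174 ± 8.74 CPM per kilobase did not overlap. The Ku genes were not compared within libraries, and a change of their order or distance between the times was not tested. FANCG and CHEK2, not NBN, followed PRKDC at that time, and the same genes closed the order. Some of these values are uncertain, since 66.0% of the exon bases of RAD54B overlap FSBP on the same strand, and 76.9% of those of RAD50 overlap another gene. For RAD51D 8.02% of the exon bases overlap another gene, and its level per kilobase rests on a canonical transcript of 9966 bases. Together the members took 0.268 to 0.285% of all counts in DMSO at 4 h, 0.223 to 0.226% with i-BET858 and 0.231 to 0.249% with i-BET151. At 24 h they took 0.248 to 0.283% with DMSO, 0.204 to 0.237% with i-BET858 and 0.224 to 0.269% with i-BET151.

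**Figure D1:**
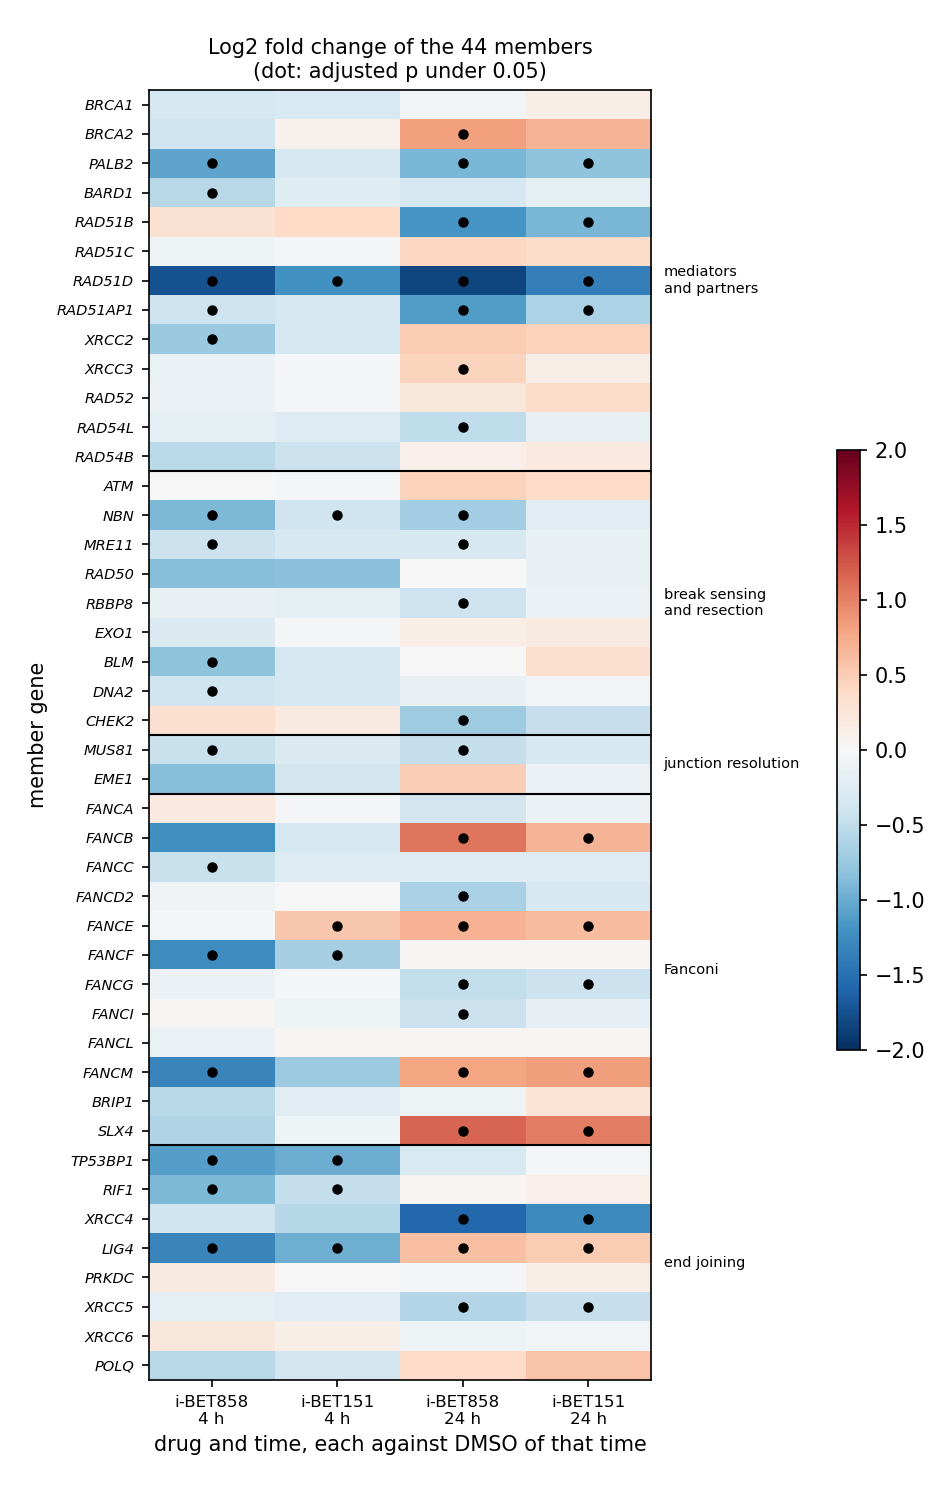
Log2 fold change of each member (rows, by class) with each drug and time against DMSO of that time (columns), where blue is lower and red is higher than DMSO and a dot marks an adjusted p under 0.05. With i-BET858 at 4 h all 16 dots are blue, whereas at 24 h 15 are blue and 7 are red.

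The first comparison asked what i-BET858 did to these genes within 4 h. Of the 44 members 16 (36.4%) were called, and all 16 were lower than in DMSO, beside 30.8% of all genes called, 16.3% lower and 14.5% higher. The fall touched recombination mediators (RAD51D, PALB2), the shared break sensor NBN, the Fanconi genes FANCM and FANCF, and the end joining genes LIG4, TP53BP1 and RIF1. The median log2 fold change of the members was −0.41 and 38 of 44 were negative, while the median over all genes was 0.02 and 48.5% of them were negative. The 3 libraries of i-BET858 and of DMSO did not overlap for 23 members, against 44.6% of all genes. With a minimum of a 2-fold change 6 members were called, beside 14.1% of all genes. Without the third replicates 19 members were called, again all lower. With the replicate number as a block 22 were called, 20 lower and 2 higher. Of the 16 calls, 8 held in each of the 9 fits that left out 1 library (PALB2, RAD51D, NBN, BLM, FANCF, TP53BP1, RIF1 and LIG4), and the count was 8 without the first i-BET858 library and 9 without the second DMSO library.

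By pathway, 10 of 24 recombination genes, 3 of 12 Fanconi genes and 3 of 8 end joining genes were lower with i-BET858 at 4 h, with medians of −0.41, −0.29 and −0.47 on the log2 scale. The difference between the pathways was not tested.

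Among the mediators, RAD51D fell the most. This mediator gene (chr17:35092221-35121522, minus strand, GRCh38) had 4.94, 4.85 and 3.73 CPM in the 3 DMSO libraries at 4 h, 1.86, 1.21 and 0.966 CPM with i-BET858, and 2.26, 2.0 and 1.63 CPM with i-BET151. Every treated library lay below every DMSO library. Its log2 ratio to DMSO was −1.74 ± 0.32 (SE) with i-BET858, a 3.35-fold fall (adjusted p = 0.0017, edgeR), and −1.20 ± 0.31 under i-BET151 (adjusted p = 0.023). The call with i-BET151 was lost when any 1 of 5 of the 6 libraries compared was left out, at adjusted p of 0.0520 to 0.0919, the exception being the third DMSO library.

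PALB2, which bridges BRCA1 and BRCA2, had 11.3, 13.3 and 12.3 CPM with DMSO, 6.02, 6.2 and 5.40 CPM with i-BET858 and 9.62, 9.75 and 10.2 CPM with i-BET151. Both drugs lay below DMSO in all libraries, and i-BET858 lay below i-BET151. Its log2 ratio to DMSO was −1.06 ± 0.17 under i-BET858 (adjusted p = 0.00061) and −0.32 ± 0.16 under i-BET151 (adjusted p = 0.22). The other mediators called with i-BET858 were XRCC2 at −0.74, BARD1, the partner of BRCA1, at −0.55, and RAD51AP1, which stimulates strand pairing, at −0.42, all of which lost the call when some single libraries were left out. BRCA1 itself had 21.6, 31.0 and 19.3 CPM with DMSO and 20.3, 20.2 and 16 CPM with i-BET858, and BRCA2, a mediator that binds PALB2, had 10.9, 17.4 and 15.6 CPM and 12.3, 14.5 and 6.39 CPM. For both genes the groups overlapped, at −0.34 ± 0.20 (adjusted p = 0.24) and −0.40 ± 0.28 (adjusted p = 0.31). Without the second DMSO library they were −0.12 and −0.27, and BRCA2 was at −0.65 and −0.12 without i-BET858 library 2 or 3.

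Among the genes that sense and resect breaks, NBN, a subunit of the sensor complex with MRE11 and RAD50, had 104, 99.7 and 85.7 CPM with DMSO, 51.3, 52.7 and 50.1 CPM with i-BET858 and 73.3, 70.7 and 76.2 CPM with i-BET151. The groups lay in 3 separate tiers. The log2 ratio was −0.91 ± 0.12 (adjusted p = 0.00015) with i-BET858 and −0.40 ± 0.11 (adjusted p = 0.035) with i-BET151. MRE11, the nuclease of the complex, was at −0.43, the helicase gene BLM at −0.80 and the nuclease gene DNA2 at −0.40 with i-BET858, each called, of which BLM held whichever library was left out. RAD50 was at −0.85 ± 0.41 and not called (adjusted p = 0.15, and 0.029 with the replicate number as a block). ATM, the kinase that signals breaks, was at −0.01, and EXO1, RBBP8 and CHEK2 were not called either. With the block, CHEK2 was called higher at 0.34 (adjusted p = 0.045). Of the resolvases, MUS81 was called at −0.45, which was lost in 6 of the 9 fits that left out 1 library, and its partner EME1 was at −0.85 (adjusted p = 0.064, and 0.0086 with the block).

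**Figure D2:**
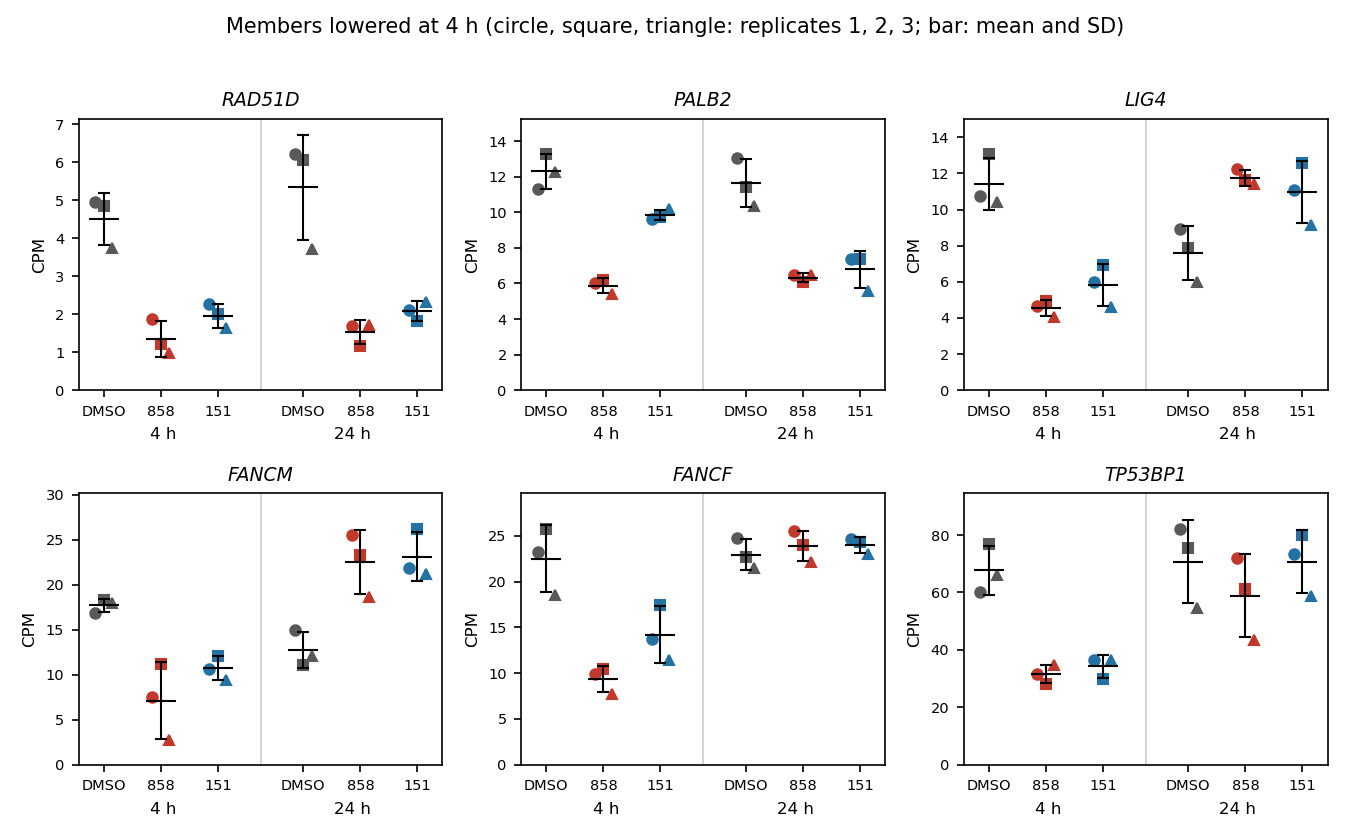
Level in CPM of 6 members in every library, with DMSO in grey, i-BET858 in red and i-BET151 in blue at 4 h (left of each panel) and 24 h (right), and with the mean and SD of 3 libraries as black marks. RAD51D and PALB2 are low at both times with i-BET858, while LIG4 and FANCM are below DMSO at 4 h and above it at 24 h.

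Of the Fanconi genes, FANCM, the helicase that recruits the core complex to DNA (chr14:45135930-45200890, plus strand), had 16.9, 18.3 and 18 CPM with DMSO at 4 h, 7.48, 11.2 and 2.70 CPM with i-BET858 and 10.7, 12.1 and 9.44 CPM with i-BET151. All treated libraries lay below DMSO, and those of i-BET858 were the most spread. Its log2 ratio to DMSO was −1.31 ± 0.37 under i-BET858 (adjusted p = 0.02), which became 0.055 without the second DMSO library and 0.053 without the first i-BET858 library. With i-BET151 it was −0.72 ± 0.37 and not called (adjusted p = 0.22), but it was called in 5 alternatives, which were the block, no filter on low counts, only the groups compared, and the fits without the third replicates or without the third i-BET858 library alone (adjusted p of 0.015 to 0.046). FANCF, an adaptor of the core complex encoded in a single exon (chr11:22622533-22625823, minus strand), had 23.3, 25.8 and 18.5 CPM with DMSO, 9.93, 10.4 and 7.75 CPM with i-BET858 and 13.7, 17.5 and 11.4 CPM with i-BET151. No treated library reached the DMSO range. The log2 ratio was −1.26 ± 0.21 under i-BET858 (adjusted p = 0.00083) and −0.67 ± 0.21 under i-BET151 (adjusted p = 0.046), and the latter call was lost when the first or second DMSO library, the first or second i-BET858 library or i-BET151 library 1 or 3 was left out (adjusted p of 0.0580 to 0.174).

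FANCC, another core subunit, was called at −0.45 with i-BET858, and not in 5 of the 9 fits that left out 1 library. FANCB was at −1.23 ± 0.62 and not called (adjusted p = 0.17, and 0.022 without the filter on low counts), and at −0.72 without the third i-BET858 library, with 2.08, 2.26 and 0.256 CPM against 3.32, 3.84 and 3.57 CPM in DMSO. SLX4, the scaffold of the unhooking nucleases, was at −0.59 ± 0.21 and just missed the threshold (adjusted p = 0.056), and it was called in 7 of 18 alternatives, which were the block, DESeq2, total library size, the fit of all 18 libraries and 3 fits that left out 1 library (adjusted p of 0.0095 to 0.050). FANCD2, the clamp that is ubiquitinated by the core complex, had 36.2, 38.0 and 36.8 CPM with DMSO, 30.7, 30.4 and 44.4 CPM with i-BET858 and 32.2, 30.8 and 47.6 CPM with i-BET151, so that the groups overlapped (−0.07 ± 0.20 and −0.01 ± 0.20). FANCE was the 1 member called higher at 4 h. It stood at 0.54 ± 0.16 (adjusted p = 0.04) with i-BET151 and at −0.02 ± 0.16 with i-BET858. That call was lost when any of the 3 DMSO libraries, the first i-BET858 library or i-BET151 library 2 or 3 was left out (adjusted p of 0.0516 to 0.176).

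In end joining LIG4, TP53BP1 and RIF1 fell at 4 h with both drugs. LIG4, the ligase of classical end joining (chr13:108207439-108218368, minus strand), had 10.7, 13.1 and 10.4 CPM with DMSO, 4.67, 4.92 and 4.06 CPM with i-BET858 and 6.01, 6.91 and 4.58 CPM with i-BET151. The treated libraries all lay below DMSO, at −1.32 ± 0.21 under i-BET858 (adjusted p = 0.00075) and −0.97 ± 0.21 under i-BET151 (adjusted p = 0.0096, and 0.0505 without the second DMSO library). TP53BP1, the chromatin reader that shields breaks from resection (chr15:43403061-43510728, minus strand), had 60.1, 76.9 and 66.2 CPM with DMSO, 31.5, 28.3 and 34.6 CPM with i-BET858 and 36.6, 29.7 and 36.5 CPM with i-BET151. It fell with both drugs, by 1.10 ± 0.15 (adjusted p = 0.0002) and 0.99 ± 0.15 (adjusted p = 0.001) on the log2 scale, and it was the 1 member whose call with i-BET151 at 4 h held whichever library was left out. Since 28.8% of its exon bases overlap TUBGCP4 on the other strand, part of its counts may belong to that gene.

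RIF1, which acts with TP53BP1, had 93.8, 98.9 and 104 CPM with DMSO, 48.5, 52.5 and 58.3 CPM with i-BET858 and 72.9, 65.2 and 76.3 CPM with i-BET151. The 3 groups were again separate, at −0.89 ± 0.12 (adjusted p = 0.00022) and −0.47 ± 0.12 (adjusted p = 0.02). The i-BET151 calls of NBN and RIF1 were lost when any 1 of 5 and any 1 of 4 libraries was left out (adjusted p of 0.0527 to 0.134 and 0.0579 to 0.0936). The Ku and kinase genes kept their levels closer to DMSO. XRCC5 had 702, 606 and 601 CPM with DMSO, 568, 528 and 591 CPM with i-BET858 and 540, 561 and 559 CPM with i-BET151, at −0.17 and −0.20 and not called (adjusted p = 0.21 and 0.19, the latter 0.049 with the block), although no treated library overlapped DMSO. With i-BET858 XRCC5 was called in 1 of 18 alternatives (adjusted p = 0.015), and its value reached −0.33 among them. XRCC6 had 539, 465 and 387 CPM with DMSO and 589, 554 and 480 CPM with i-BET858, at 0.23 (adjusted p = 0.26, and 0.012 with the block). PRKDC had 335, 405 and 554 CPM with DMSO and 381, 459 and 614 CPM with i-BET858, at 0.17 (adjusted p = 0.6). POLQ, the polymerase of microhomology-mediated joining, had 31.1, 53.0 and 35.9 CPM with DMSO and 31.6, 33.3 and 16.8 CPM with i-BET858, at −0.55 ± 0.35 (adjusted p = 0.27, 0.020 with the block and 0.011 without the filter on low counts). Its value was −0.30 without the second DMSO or the third i-BET858 library.

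The second comparison asked the same of i-BET151 at 4 h. In total 7 members (15.9%) were called, 6 lower and 1 higher, beside 16.2% of all genes called, 8.43% lower and 7.81% higher. The members that fell were RAD51D, NBN, FANCF, TP53BP1, RIF1 and LIG4, each of which was also called lower with i-BET858 against the same DMSO libraries. How often this held over all genes called lower with i-BET151 was not taken. The median was −0.25 and 37 of 44 members were negative, beside a median of 0.01 over all genes. The groups did not overlap for 16 members, against 36.7% of all genes, and 1 member (RAD51D) fell at least 2-fold, beside 7.1% of all genes called at that size. By pathway, 2 of 24 recombination genes, 1 of 12 Fanconi genes and 3 of 8 end joining genes were lower. With the block 13 members were called, 12 lower and 1 higher, the additional genes being RAD51AP1, MRE11, RAD50, DNA2, FANCM and XRCC5. Without the third replicates 9 were called, all lower, and with total library size 6, all lower. Over the fits that left out 1 library the count ranged from 1 to 8. It was 1 without the second DMSO library, 3 without the first DMSO, the first i-BET151 or the second i-BET151 library and 4 without the third i-BET151 library.

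The third comparison was i-BET858 against DMSO at 24 h. Here 22 of 44 members were called, 7 higher and 15 lower, beside 41.7% of all genes, 20.5% higher and 21.3% lower. The members that were lower included XRCC4, RAD51B and RAD51AP1 besides RAD51D and PALB2, and those that were higher included SLX4, FANCB, FANCM, FANCE and LIG4. The median log2 fold change was −0.08, beside −0.01 over all genes, and it was −0.13 without the first and −0.024 without the third i-BET858 library. In all, 26 members did not overlap with DMSO, against 55.1% of all genes. At least 2-fold changes were called for 6 members, beside 18.8% of all genes. By pathway, 2 recombination genes were higher and 10 lower of 24, 4 Fanconi genes were higher and 3 lower of 12, and 1 end joining gene was higher and 2 lower of 8. With total library size 4 were higher and 16 lower. Without the third replicates 30 were called, 12 higher and 18 lower, and the share of all genes in that fit was not taken. Of the 22 calls 14 held in each fit that left out 1 library, and the 8 that did not were BRCA2, XRCC3, RAD54L, MRE11, RBBP8, CHEK2, MUS81 and LIG4.

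With i-BET151 at 24 h against DMSO of that time 12 members were called (27.3%), 5 higher and 7 lower, beside 33.8% of all genes, 17.2% higher and 16.6% lower. All 12 were called in the same direction with i-BET858 against the same DMSO libraries. The like share over all genes called with i-BET151 was not taken, so this overlap is not particular to the members. The median was −0.04, beside 0.00 over all genes, and 18 members did not overlap with DMSO, against 48.9%, and 3 were called at 2-fold or more, beside 13.7% of all genes. By pathway, no recombination gene was higher and 4 were lower, 4 Fanconi genes were higher and 1 lower, and 1 end joining gene was higher and 2 lower. With total library size or DESeq2's size factors 3 were higher and 7 lower. With the block 22 were called, 11 in each direction, and without the third replicates 24, of which 11 were higher and 13 lower. The additional genes with the block were BRCA2 at 0.72, RAD51C at 0.35, XRCC2 at 0.48, ATM at 0.38, BLM at 0.33 and POLQ at 0.62, which were higher, and NBN at −0.23, CHEK2 at −0.48, MUS81 at −0.33 and FANCD2 at −0.32, which were lower.

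At 24 h the summed markers of the cell cycle differed too. The 16 markers of S phase summed to 2387 to 2605 CPM with DMSO, 2047 to 2222 CPM with i-BET858 and 2190 to 2293 CPM with i-BET151, with 8 and 5 of the 16 called lower and none called higher. The 16 markers of G2 and mitosis summed to 2407 to 2763 CPM with DMSO, 3293 to 3502 CPM with i-BET858 and 2891 to 3285 CPM with i-BET151, with 5 called higher and none lower with i-BET858 and 2 higher and 1 lower with i-BET151. At 4 h both sums overlapped between DMSO and i-BET858, at 2186 to 2454 and 2074 to 2645 CPM for G2 and mitosis and at 2321 to 2618 and 2280 to 2727 CPM for S phase. The part of these shifts in the members' differences at 24 h was not tested.

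RAD51D stayed low at 24 h. It had 6.21, 6.06 and 3.73 CPM with DMSO, 1.70, 1.17 and 1.73 CPM with i-BET858 and 2.10, 1.83 and 2.33 CPM with i-BET151. No treated library overlapped DMSO, and the log2 ratios were −1.83 ± 0.29 (adjusted p = 0.00049) and −1.37 ± 0.28 (adjusted p = 0.0037). PALB2 had 13.1, 11.5 and 10.4 CPM with DMSO, 6.47, 6.06 and 6.46 CPM with i-BET858 and 7.40, 7.39 and 5.59 CPM with i-BET151, at −0.92 ± 0.17 (adjusted p = 0.0014) and −0.80 ± 0.17 (adjusted p = 0.0041). PALB2 was 1.25-fold below DMSO at 4 h of i-BET151 and 1.74-fold below it at 24 h, and the change of this effect was not past the threshold (−0.45 ± 0.23, adjusted p = 0.2).

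RAD51B, the mediator gene with the longest span among the members (910440 bases, chr14:67819779-68730218, plus strand), was called lower at 24 h and not at 4 h. It had 4.91, 3.66 and 2.48 CPM with DMSO at 4 h and 5.33, 5.28 and 3.07 CPM with i-BET858, which overlapped. At 24 h it had 4.85, 4.75 and 5.45 CPM with DMSO, 2.11, 2.33 and 2.37 CPM with i-BET858 and 2.47, 2.52 and 3.11 CPM with i-BET151, where each drug lay below DMSO. The log2 ratios were −1.18 ± 0.22 (adjusted p = 0.0015) and −0.91 ± 0.22 (adjusted p = 0.0086). RAD51AP1 was at −1.12 ± 0.12 under i-BET858 (adjusted p = 4.9e-05, the smallest among the members) and at −0.64 ± 0.12 under i-BET151 (adjusted p = 0.0023), from 34.3, 33.6 and 28.6 CPM with DMSO to 15.9, 16.2 and 13.5 CPM and 22.2, 20.5 and 20.1 CPM. Its 3 groups were separate.

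BRCA2 was on the other side. It had 16.7, 15.9 and 6.72 CPM with DMSO at 24 h, 25.2, 25.3 and 20.9 CPM with i-BET858 and 23.0, 25.4 and 15.3 CPM with i-BET151. Library 3 was the lowest of each group, and i-BET858 lay above all DMSO libraries. Its log2 ratio to DMSO was 0.83 ± 0.30 under i-BET858 (adjusted p = 0.044) and 0.68 ± 0.30 under i-BET151 (adjusted p = 0.1, and 0.0036 with the block). Without the third DMSO library the ratios were 0.54 and 0.38, and the call with i-BET858 was lost without DMSO library 2 or 3, or the first or second library of either drug (adjusted p of 0.0511 to 0.112). BRCA1 had 36.6, 34.7 and 15.9 CPM with DMSO, 31.5, 33.2 and 20.9 CPM with i-BET858 and 35.1, 37.5 and 23.8 CPM with i-BET151, so that the groups overlapped (−0.06 ± 0.29 and 0.13 ± 0.29, not called). XRCC3 was higher with i-BET858 at 0.44, although 76.7% of its exon bases overlap KLC1, and RAD54L, a motor protein gene of strand exchange, was lower at −0.51. XRCC2, RAD51C and ATM were at 0.50, 0.41 and 0.46 with i-BET858 and not called, but were called with the block (adjusted p = 0.0034, 0.0026 and 0.011, respectively) and without the third replicates (0.0063, 0.00034 and 0.039), and XRCC2 was at 0.28 without the third DMSO library.

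Among the break sensors NBN was lower with i-BET858 at 24 h, with 51.6, 48.9 and 54.4 CPM against 83.6, 85.1 and 76.7 CPM in DMSO and 72.6, 74.0 and 66.5 CPM with i-BET151. This gave a log2 ratio of −0.70 ± 0.09 (adjusted p = 0.00014) with i-BET858, and −0.23 ± 0.09 under i-BET151 (adjusted p = 0.078, and 0.048 with the block). CHEK2, the checkpoint kinase, was at −0.70, RBBP8, which starts resection, at −0.41 (−0.26 without the third i-BET858 library), MRE11 at −0.32 and MUS81 at −0.48 with i-BET858. All 4 calls were lost when some single libraries were left out, CHEK2 only without the third i-BET858 library (adjusted p = 0.0548). Named pseudogenes of CHEK2, MRE11 and RBBP8 exist and could share reads with them.

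**Figure D3:**
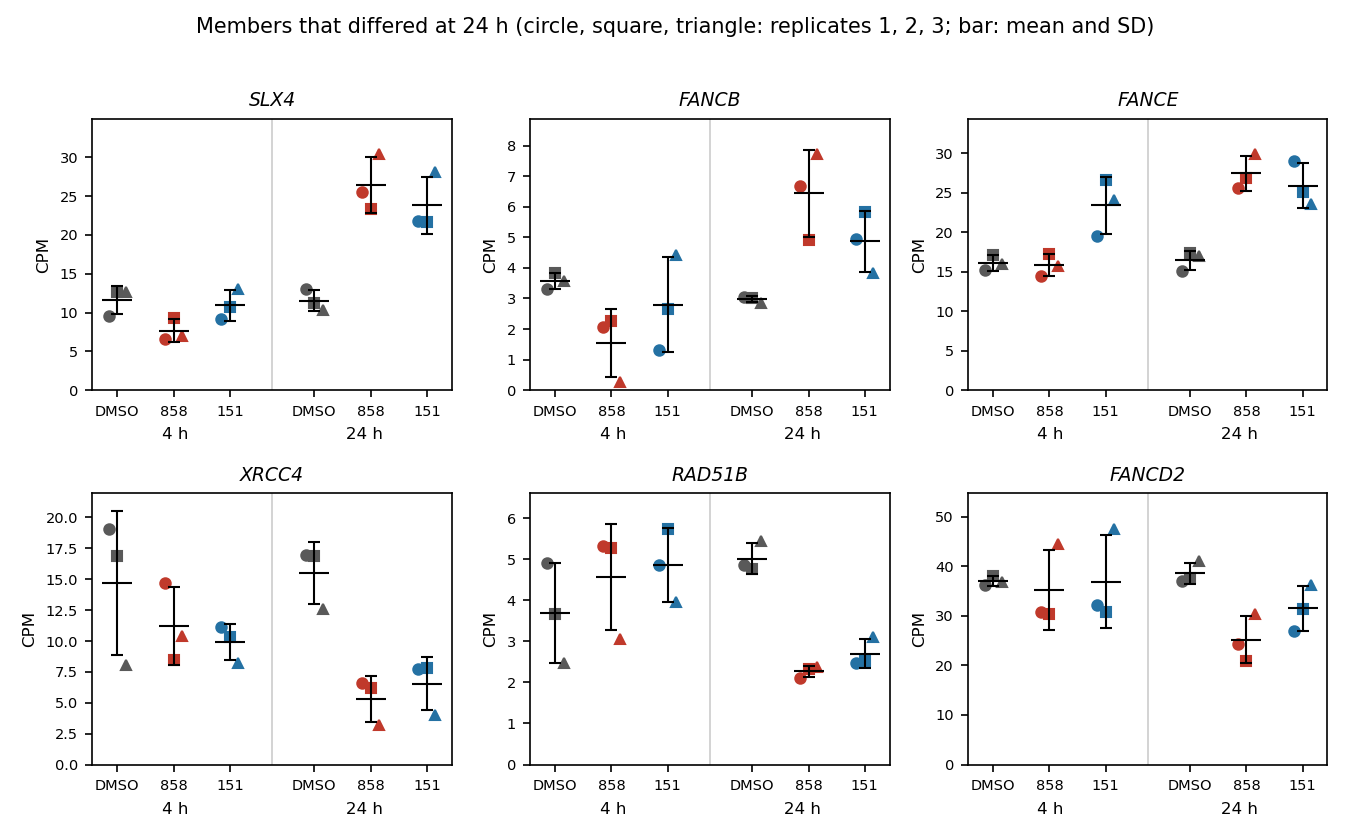
Level in CPM of 6 members in every library, drawn as in the plot of members lowered at 4 h. SLX4, FANCB and FANCE are above DMSO at 24 h with both drugs, XRCC4 and RAD51B are below it, and FANCD2 is below it with i-BET858.

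At 24 h Fanconi genes were called in both directions, as were recombination and end joining genes with i-BET858 and genes at large. SLX4 (chr16:3581181-3611606, minus strand) had 13.0, 11.3 and 10.3 CPM with DMSO, 25.6, 23.3 and 30.4 CPM with i-BET858 and 21.8, 21.7 and 28.1 CPM with i-BET151. Each treated library was above each DMSO library, and the log2 ratios of 1.16 ± 0.16 (adjusted p = 0.00021) and 1.03 ± 0.16 (adjusted p = 0.00069) were the largest rises among the called members of each comparison. FANCB, which holds the core complex together, had 3.06, 3.03 and 2.87 CPM with DMSO, 6.68, 4.92 and 7.72 CPM with i-BET858 and 4.93, 5.84 and 3.84 CPM with i-BET151. It was called with i-BET858 at 1.07 ± 0.23 (adjusted p = 0.0038, and 0.080 in the fit of all 18 libraries) and with i-BET151 at 0.68 ± 0.23 (adjusted p = 0.044), the latter call being lost when any DMSO library, the first i-BET858 library or the first or second i-BET151 library was left out (adjusted p of 0.0714 to 0.175).

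FANCM had 15, 11.1 and 12.1 CPM with DMSO at 24 h, 25.6, 23.3 and 18.7 CPM with i-BET858 and 21.8, 26.3 and 21.2 CPM with i-BET151. Both drugs lay above DMSO, at 0.78 ± 0.16 (adjusted p = 0.0029) and 0.84 ± 0.16 (adjusted p = 0.0027). FANCE was at 0.70 and 0.63 (adjusted p = 0.0013 and 0.0032). FANCF, with 24.8, 22.6 and 21.4 CPM with DMSO, had 25.5, 24.0 and 22.2 CPM with i-BET858 and 24.6, 24.3 and 23.0 CPM with i-BET151, and its groups overlapped at 0.02 ± 0.11 and 0.04 ± 0.11. FANCD2 had 37.1, 37.6 and 41.1 CPM with DMSO, 24.4, 20.9 and 30.3 CPM with i-BET858 and 26.9, 31.3 and 36.2 CPM with i-BET151. It was lower with i-BET858 at −0.65 ± 0.16 (adjusted p = 0.0066) and at −0.32 ± 0.16 under i-BET151 (adjusted p = 0.15, and 0.026 with the block). Its partner in the clamp, FANCI, was lower with i-BET858 at −0.43 (adjusted p = 0.0079), and FANCG, a core subunit, with both drugs at −0.49 and −0.42 (adjusted p = 0.002 and 0.006). FANCA, FANCC, FANCL and the helicase gene BRIP1 were not called at 24 h. Without the third replicates FANCA was called lower with both drugs, at −0.54 and −0.32 (adjusted p = 0.0020 and 0.041). In that fit FANCC was called lower with i-BET858 at −0.30 (adjusted p = 0.015) and BRIP1 higher with i-BET151 at 0.32 (adjusted p = 0.040).

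In end joining at 24 h, XRCC4 and LIG4, whose proteins form 1 complex, moved in opposite directions. XRCC4 (chr5:83077498-83353787, plus strand) had 17.0, 16.9 and 12.6 CPM with DMSO, 6.64, 6.17 and 3.19 CPM with i-BET858 and 7.76, 7.79 and 4.05 CPM with i-BET151. All treated libraries lay below DMSO, at −1.57 ± 0.31 (adjusted p = 0.0021) and −1.27 ± 0.31 (adjusted p = 0.0089). At 4 h it had 19.1, 16.9 and 8.09 CPM with DMSO, 14.7, 8.5 and 10.4 CPM with i-BET858 and 11.1, 10.4 and 8.26 CPM with i-BET151, with overlap and no call (−0.39 ± 0.31 and −0.57 ± 0.31). Without the third replicates it was called lower at 4 h too, at −0.64 and −0.75 (adjusted p = 0.042 and 0.031), and without 1 library the values at 4 h ranged from −0.69 to −0.16 and from −0.86 to −0.34. LIG4 had 8.94, 7.85 and 5.99 CPM with DMSO at 24 h, 12.3, 11.6 and 11.4 CPM with i-BET858 and 11.1, 12.6 and 9.17 CPM with i-BET151. The drugs lay above DMSO, at 0.59 ± 0.18 (adjusted p = 0.021) and 0.51 ± 0.18 (adjusted p = 0.0499). The call with i-BET858 was lost without the second DMSO library or the first or second i-BET858 library (adjusted p of 0.0535 to 0.0710), and that with i-BET151 without any 1 of 7 libraries (adjusted p of 0.0506 to 0.197), the exceptions being the first DMSO and the third i-BET151 library.

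XRCC5 had 561, 581 and 619 CPM with DMSO at 24 h, 407, 404 and 391.8 CPM with i-BET858 and 448, 465 and 389 CPM with i-BET151. It was lower with each drug and without overlap, at −0.59 ± 0.09 (adjusted p = 0.00049) and −0.46 ± 0.09 (adjusted p = 0.0032). The other Ku gene, XRCC6, had 462, 467 and 459 CPM with DMSO, 452, 473 and 408 CPM with i-BET858 and 492, 487 and 380 CPM with i-BET151, and was at −0.10 ± 0.11 and −0.05 ± 0.11 without a call. PRKDC had 364, 360 and 339 CPM with DMSO, 397, 309 and 368 CPM with i-BET858 and 356, 423 and 409 CPM with i-BET151, with overlap (−0.03 ± 0.11 and 0.14 ± 0.11). POLQ had 50.1, 44.8 and 23.3 CPM with DMSO, 62.4, 54.2 and 42.1 CPM with i-BET858 and 59.4, 67.3 and 50.7 CPM with i-BET151. It was at 0.39 ± 0.24 and 0.57 ± 0.24 and not called, but was called with the block (adjusted p = 0.018 and 0.0024), without the third replicates (0.035 and 0.0072) and without the filter on low counts (0.015 and 0.00051). Without the third DMSO library the values were 0.15 and 0.32, and with i-BET858 0.60 without the first DMSO library and 0.26 without the first i-BET858 library. TP53BP1 was at −0.30 ± 0.20 under i-BET858 (adjusted p = 0.25, and 0.014 with the block, with values of −0.47 to −0.11 when 1 library was left out) and at −0.02 with i-BET151, and RIF1 was at 0.03 and 0.10, with overlapping groups for both genes.

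Whether an effect changed between 4 and 24 h was tested as the interaction of drug and time in a fit of all 18 libraries. With i-BET858 the effect of 16 members changed, upward in 11 and downward in 5, beside 27.2% of all genes, 14.6% upward and 12.6% downward. With i-BET151 that of 6 members changed, upward in 5 and downward in 1, beside 13.8% of all genes, 6.99% and 6.82%. With the block these were 23 and 13 members, and without the third replicates 20 and 9. With i-BET858 8 of them changed by at least 2-fold, beside 15.1% of all genes. With i-BET151 the count was 3 without the second DMSO library of either time and 2 without the second i-BET151 library of 24 h. The largest changes with i-BET858 were those of FANCB at 2.34 ± 0.70 (adjusted p = 0.018), FANCM at 2.14 ± 0.43 (adjusted p = 0.0013), LIG4 at 1.96 ± 0.28 (adjusted p = 6.6e-05) and SLX4 at 1.80 ± 0.27 (adjusted p = 8.8e-05) on the log2 scale. Their order rested on the third i-BET858 library of 4 h, without which FANCB was at 1.80, FANCM at 1.71, LIG4 at 1.85 and SLX4 at 1.70. With i-BET151 they were FANCM at 1.58 ± 0.43 (adjusted p = 0.02), LIG4 at 1.5 ± 0.28 (adjusted p = 0.0018) and RAD51B at −1.29 ± 0.38 (adjusted p = 0.032). RAD51D showed no change of effect past the threshold (−0.05 ± 0.43 and −0.15 ± 0.42, 95% intervals of −0.94 to 0.84 and −1.03 to 0.72). XRCC4 was at −1.14 ± 0.46 under i-BET858 (adjusted p = 0.077, and 0.0014 with the block).

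**Figure D4:**
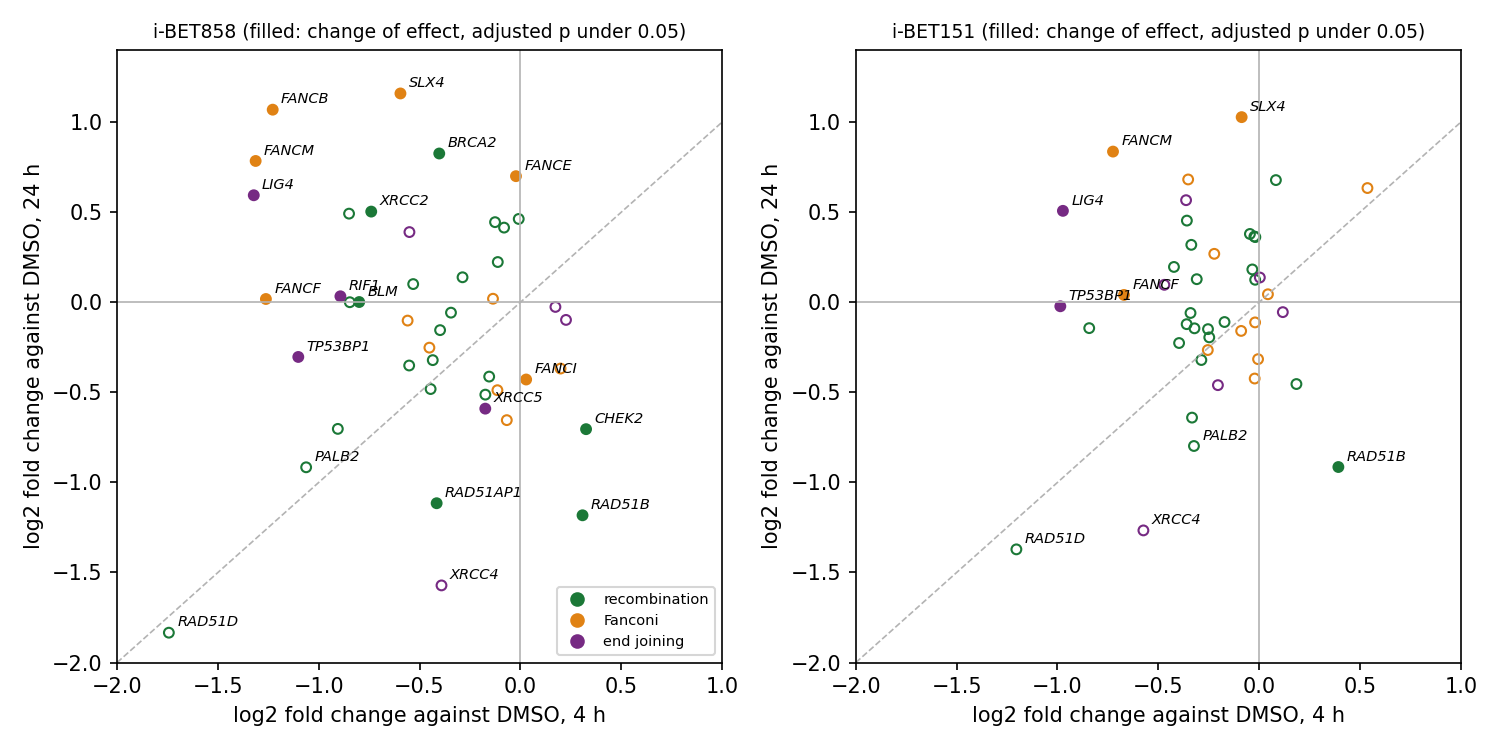
Log2 fold change against DMSO at 4 h (horizontal) and 24 h (vertical) for each member, with i-BET858 on the left and i-BET151 on the right, coloured by pathway and filled where the change of effect had an adjusted p under 0.05. FANCM and LIG4 lie at the upper left with both drugs, while RAD51D lies on the dashed line of equal change.

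With i-BET858, 6 members were called lower at both times (PALB2, RAD51D, RAD51AP1, NBN, MRE11 and MUS81), beside 6.86% of the 16570 genes tested at both times. The calls of MRE11 were lost in 4 and 8 of the 9 fits that left out 1 library at 4 and 24 h, those of MUS81 in 6 and 4, and that of RAD51AP1 at 4 h in 7. A further 2 were lower and then higher (FANCM and LIG4), beside 1.62% of all genes, and 8 were lower at 4 h and not called at 24 h (BARD1, XRCC2, BLM, DNA2, FANCC, FANCF, TP53BP1 and RIF1), beside 8.42%. At 24 h and not at 4 h 9 were called lower and 5 higher, beside 14.1 and 10.9%, and 14 were not called at either time, beside 43.4%. No member was called higher at both times, beside 8.49% of all genes. With i-BET151 1 member was lower at both times (RAD51D, beside 4.01% of all genes), 1 lower and then higher (LIG4, 0.356%), 4 lower at 4 h alone (4.35%), 6 lower and 3 higher at 24 h alone (12.9 and 12.2%), 1 higher at both times (FANCE, 5.18%) and 28 not called (58.2%). Between the DMSO groups of 24 and 4 h no member was called with edgeR, beside 0.0386% of all genes, with 6 members at an unadjusted p under 0.05, beside 9.17% of all genes, none with DESeq2 or without the third replicates and 1 (CHEK2 at 0.51) with the block.

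The drugs were compared directly at the same dose and time for all 44 members, with p-values adjusted over all genes. No member was called at 4 h or 24 h with edgeR, beside 0.971 and 0.21% of all genes, while 7 and 6 members had an unadjusted p under 0.05, all lower with i-BET858, beside 11.9 and 11.4% of all genes, 6.81 and 6.48% lower. The log2 difference of i-BET858 from i-BET151 was negative in 34 and 32 members, with medians of −0.11 and −0.12 beside 0.02 and −0.01 over all genes. The median at 4 h was −0.20 without the second i-BET858 library and −0.22 without the third i-BET151 library, and that at 24 h was −0.050 without the third i-BET858 library and −0.067 without the second i-BET151 library. PALB2 at 4 h differed by −0.74 ± 0.17 (95% interval −1.11 to −0.37, adjusted p = 0.064), NBN by −0.51 ± 0.11 (−0.76 to −0.26, adjusted p = 0.064), RIF1 by −0.42 ± 0.12 (−0.69 to −0.16, adjusted p = 0.14), FANCE by −0.56 ± 0.16 (−0.91 to −0.21, adjusted p = 0.14) and FANCF by −0.59 ± 0.21 (−1.05 to −0.14, adjusted p = 0.25). With the block these 5 members were called (adjusted p = 0.0093, 0.0045, 0.010, 0.011 and 0.013), DESeq2 called the first 4 of them, and none was called without the third replicates.

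At 24 h NBN differed by −0.48 ± 0.09 (−0.68 to −0.28, adjusted p = 0.073) and RAD51AP1 by −0.48 ± 0.12 (−0.75 to −0.20, adjusted p = 0.16), and both were called with the block (adjusted p = 0.012 and 0.023) and with DESeq2. Without the third replicates these 2 members were called together with CHEK2 and FANCI. For TP53BP1 at 4 h the difference was −0.12, with an interval of −0.44 to 0.20, for LIG4 −0.35 (−0.82 to 0.12), for RAD51D −0.54 (−1.24 to 0.17), and for SLX4 at 24 h 0.13 (−0.21 to 0.48). These intervals leave room for differences in either direction.

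**Figure D5:**
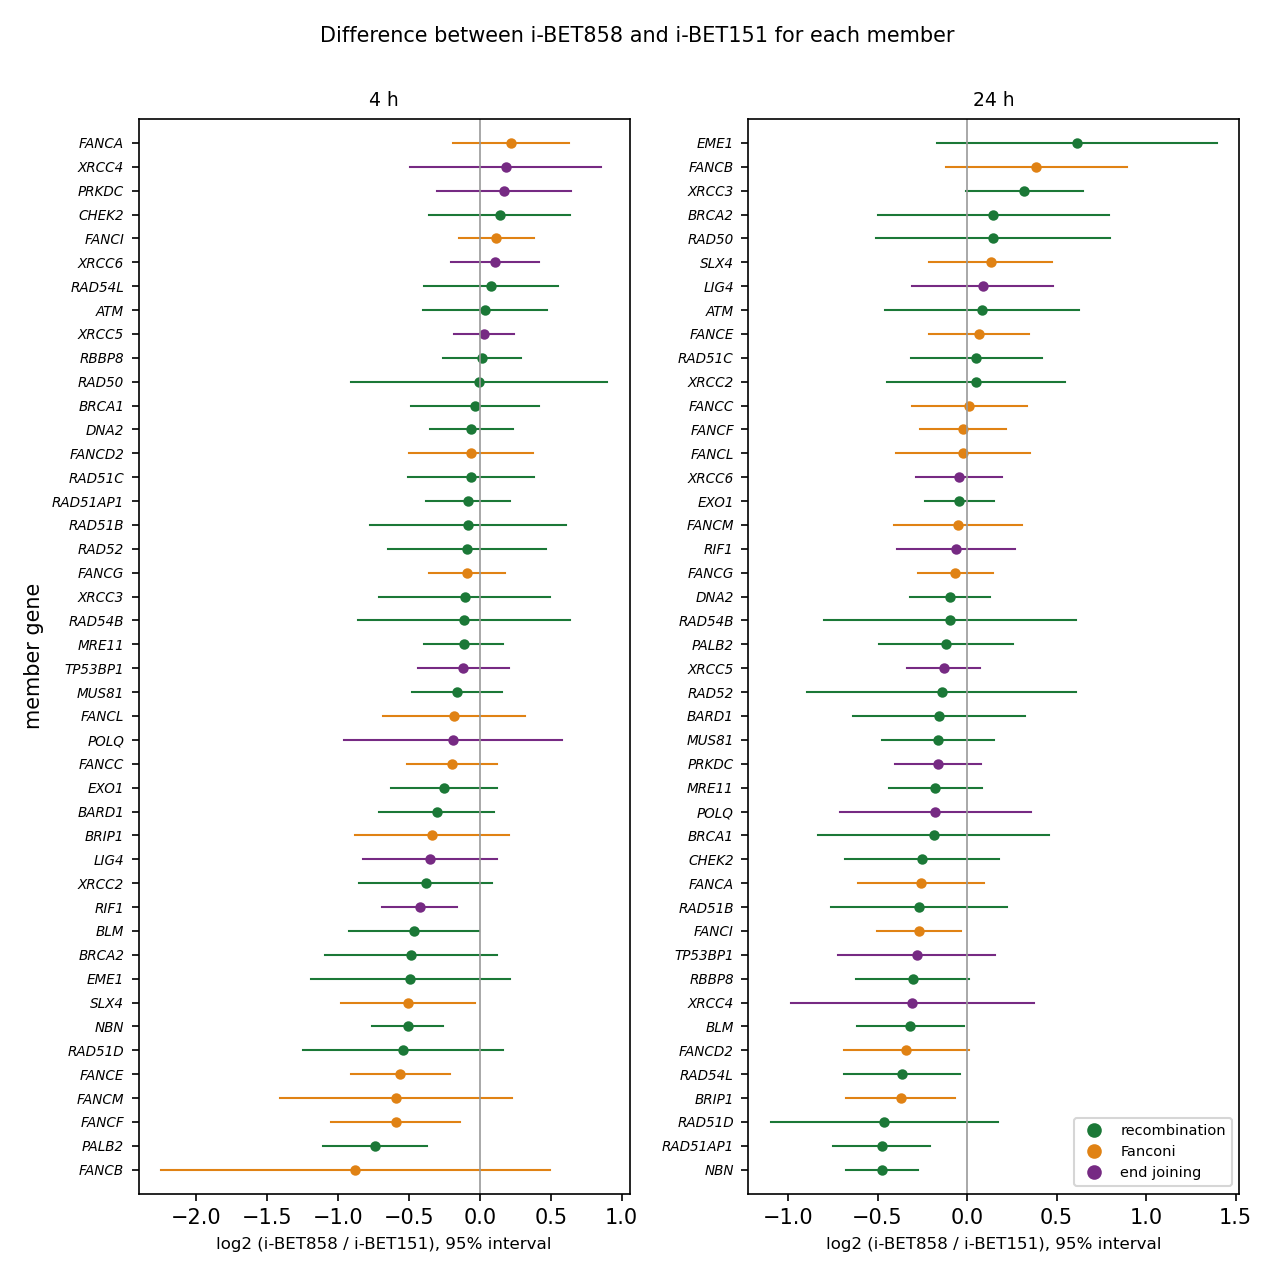
Log2 difference of i-BET858 from i-BET151 for each member (point) with its 95% interval (line) at 4 h and 24 h, sorted by value and coloured by pathway. Most points lie left of 0, with PALB2 and NBN at 4 h and NBN and RAD51AP1 at 24 h among the intervals that exclude it.

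Of 63 further genes of the same pathways, 62 were found and 60 tested. With i-BET858 at 4 h 8 were higher and 20 lower, beside the 30.8% of all genes called, 14.5% higher and 16.3% lower, and with i-BET151 3 were higher and 8 lower, beside 7.81 and 8.43% of all genes. The end joining genes among them included SHLD3, a subunit of the shieldin complex that acts downstream of TP53BP1 and RIF1, at −2.43 and a low level, the polymerase gene POLL at −1.46, the ligase gene LIG3 at −0.94 and APLF at 1.20 with i-BET858. In the Fanconi pathway FAAP24, the partner of FANCM, was at −1.57 and −1.27 with the 2 drugs at 4 h. In recombination MMS22L was at −1.68 and UIMC1, of the BRCA1-A complex, at −0.92 with i-BET858. At 24 h 12 were higher and 13 lower with i-BET858, beside 20.5 and 21.3% of all genes, and 9 were higher and 6 lower with i-BET151, beside 17.2 and 16.6%. At 4 h the share of the 60 genes called lower was above that of all genes with each drug, and the share called higher was below it. At 24 h the shares of the 60 genes were near or below those of all genes, and none of these differences was tested. The called genes included ABRAXAS1 at 1.41 and 1.03 and APLF at 1.05 and 1.18 among the rises and SHLD1 at −1.89 with i-BET858 among the falls.

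The members called lower after 4 h of i-BET858 had a median gene span of 61.5 kb against 83.7 kb for those not called, and a median of 15.5 exons in both groups. Their median level in DMSO was 6.2 CPM per kilobase against 5.45 CPM per kilobase. At 24 h the members called lower had a median span of 73.3 kb, those called higher 30.4 kb and those not called 90.3 kb, and their median levels in DMSO were 11.3, 1.78 and 4.73 CPM per kilobase. These values are descriptions, since the groups of members were formed by the calls.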

How the data were processed

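The 18 libraries were made from poly-A RNA and read in pairs (NovaSeq). The deposited values are raw counts per Ensembl gene, which the authors made with STAR on GRCh38 (its gene counts mode). The submitters' processing notes also name DESeq2. Annotation, strand setting and versions were not given in the sources used here. The tables' columns name treatment and replicate, and the time was taken from the name of each table. Identifiers were matched to GENCODE 44 (58472 of 58825, 99.4%).

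Counts of each time point (9 libraries, 3 groups) were fitted in edgeR 4.0.16 (R 4.3.3) with filterByExpr, TMM factors and the quasi-likelihood test, and p-values were adjusted over all genes tested. The interaction and the DMSO time comparison used all 18 libraries. Members to be shown by library were picked by rule, though not all are given in every group. These were the 4 with the largest absolute change among those called in each drug comparison (average log2 CPM of at least 1). BRCA1, BRCA2, FANCD2, POLQ, PRKDC, XRCC5 and XRCC6 were added to them. Other members named with library values were chosen after their values were seen. The members and lists were chosen with earlier results of these data known. The tests were checked on simulated data.

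Libraries with the same replicate number deviated together from their group means, with r across genes of 0.219 to 0.489 at 4 h and 0.175 to 0.454 at 24 h. For libraries of different numbers r was −0.432 to 0.264 and −0.432 to 0.428, and its positive values were all between replicates 1 and 2. These values set replicates 1 and 2 apart from the other libraries. Since the ranges overlapped at both times, a pairing of replicates 1 and 2 by number was not shown. The main fits left the numbers out, and the model that adds them as a block, which assumes such a pairing, was 1 alternative. Others were DESeq2 1.42.0, its size factors, scaling by library totals alone, no filter, at least 10 counts in every library, only the groups compared, all 18 libraries in 1 fit, replicates 1 and 2 only, a 2-fold minimum, and each library left out.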

Additional observations from a re-analysis of the deposited data

Results flagged for a closer look

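The effect of i-BET858 on 16 members and of i-BET151 on 6 members differed between 4 and 24 h by the interaction test (edgeR, adjusted p under 0.05), given here as the log2 effect at 24 h minus that at 4 h. Under i-BET858 it moved upward in the recombination genes BRCA2 (1.27), XRCC2 (1.28) and BLM (0.84), in the Fanconi genes FANCB (2.34), FANCM (2.14), SLX4 (1.80), FANCF (1.32) and FANCE (0.77), and in the end joining genes LIG4 (1.96), RIF1 (0.97) and TP53BP1 (0.84). It moved downward in RAD51B (−1.45), CHEK2 (−0.99), RAD51AP1 (−0.66), FANCI (−0.41) and XRCC5 (−0.37). With i-BET151 it moved upward in FANCM (1.58), LIG4 (1.5), SLX4 (1.13), TP53BP1 (0.98) and FANCF (0.73) and downward in RAD51B (−1.29). Of the 16 calls with i-BET858, 10 held in each of the 18 fits that left out 1 library, and those of BRCA2, BLM, CHEK2, FANCI, TP53BP1 and XRCC5 did not, with adjusted p of up to 0.127. Without the filter on low counts the changes of RAD51AP1, FANCI and XRCC5 were not called (adjusted p = 0.099, 0.32 and 0.28). Of the 6 calls with i-BET151, those of SLX4 and LIG4 held, while FANCM and TP53BP1 were lost in 2 fits each, RAD51B in 9 and FANCF in 15, with adjusted p of up to 0.128.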

How the results depend on the processing

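Total counts of called members stayed within 1.5 times the value of the report under the alternatives not named here. Their split moved more. With i-BET858 at 24 h it was 11 higher and 13 lower without the filter on low counts and 11 and 16 with the block, with i-BET151 at 24 h 7 and 7 without the filter and 3 and 7 with only the groups compared, and without the filter the changes of effect were 14 upward and 3 downward for i-BET858 and 6 and 0 for i-BET151. A 2-fold minimum gave 6 and 1 members with i-BET858 and i-BET151 at 4 h, 6 and 3 at 24 h, and 8 changes of the i-BET858 effect. The replicate block gave 13 with i-BET151 at 4 h, 22 at 24 h, 5 and 2 between the drugs at 4 and 24 h, 13 changes of the i-BET151 effect and 1 between the DMSO groups, lost no call of a member, and changed no call beyond those named in the report, 6 further changes of the i-BET858 effect (RAD51C, XRCC3, EXO1, EME1, FANCD2 and POLQ) and 7 of the i-BET151 effect (RAD51C, XRCC2, BLM, CHEK2, FANCG, RIF1 and POLQ). Between the drugs DESeq2 called 4 and 2, and at 4 h total library size and the fit of all 18 libraries called 3 each. Replicates 1 and 2 alone gave 24 with i-BET151 and 4 between the drugs at 24 h. Without 1 library, the counts ranged from 8 to 18 and 1 to 8 at 4 h, from 15 to 22 and 10 to 13 at 24 h, from 0 to 0 and 0 to 1 between the drugs, from 11 to 17 and 2 to 6 for the changes of effect, and from 0 to 0 between the DMSO groups.

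Single calls were also lost under other settings. No filter on low counts ended, with i-BET858 and i-BET151 respectively, those of RAD51AP1, MRE11, DNA2, MUS81 and FANCC, and of NBN and FANCE, at 4 h, those of RAD54L and MRE11, and of RAD51B, FANCB and LIG4, at 24 h, and the changes of RAD51AP1, FANCI and XRCC5, and of RAD51B and FANCF (adjusted p of 0.051 to 0.32). Fitting only the groups compared ended BARD1, RAD51AP1, MRE11, DNA2, MUS81 and FANCC, and FANCF, at 4 h, and BRCA2 and MRE11, and FANCB and LIG4, at 24 h (0.052 to 0.085). Total library size ended FANCE with i-BET151 at 4 h, BRCA2, XRCC3 and LIG4, and FANCB and LIG4, at 24 h, and the changes of XRCC5 and of FANCF (0.051 to 0.13). The fit of all 18 libraries ended XRCC3, RAD54L, MRE11 and FANCB, and FANCB, at 24 h (0.051 to 0.30). DESeq2's size factors ended FANCB, LIG4 and the change of FANCF with i-BET151 (0.051 to 0.056), and replicates 1 and 2 alone FANCE with i-BET151 at 4 h and the changes of FANCI and XRCC5 with i-BET858 (0.066 to 0.10).

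Total library size moved the median of all genes to −0.14 with i-BET858 at 4 h. Members that changed sign were not called in the report's test. At 4 h these were, with i-BET858, FANCI at −0.13 (total library size) and −0.029 (replicates 1 and 2), and with i-BET151, FANCD2 at 0.0036 (DESeq2), 0.0037 (its size factors), 0.011 (10 counts) and 0.0033 (groups compared only), PRKDC at −0.060 (total library size) and −0.00092 (no filter) and XRCC3 at 0.20 (replicates 1 and 2). At 24 h they were, with i-BET858, BLM at −0.0014 (DESeq2), −0.0013 (its size factors), −0.090 (total library size), −0.0056 (10 counts) and −0.042 (replicates 1 and 2), FANCF at −0.070 and RIF1 at −0.062 (total library size), RIF1 at −0.10 (replicates 1 and 2), and PRKDC at 0.0012 (no filter) and 0.013 (18 libraries). With i-BET151 they were BRCA1 at −0.011 and XRCC6 at 0.037, and FANCI at 0.050 for the change of effect (replicates 1 and 2).

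Leaving out 1 library also turned the sign of these members. With i-BET858 at 4 h the ranges were −0.27 to 0.026 for FANCD2, −0.091 to 0.039 for FANCE, −0.036 to 0.078 for FANCI, −0.035 to 0.38 for PRKDC and −0.22 to 0.027 for XRCC3. With i-BET151 at 4 h they were −0.090 to 0.22 for BRCA2, −0.24 to 0.11 for FANCD2, −0.064 to 0.015 for FANCG, −0.17 to 0.22 for PRKDC, −0.24 to 0.027 for SLX4 and −0.37 to 0.26 for XRCC3. With i-BET858 at 24 h they were −0.090 to 0.090 for BLM, −0.33 to 0.14 for BRCA1, −0.029 to 0.088 for FANCF, −0.10 to 0.067 for PRKDC and −0.082 to 0.11 for RIF1. With i-BET151 at 24 h they were −0.35 to 0.12 for BARD1, −0.15 to 0.33 for BRCA1, −0.027 to 0.18 for RIF1, −0.16 to 0.095 for TP53BP1, −0.12 to 0.048 for XRCC6 and −0.062 to 0.054 for the median of the members, and −0.12 to 0.020 for the change of FANCI. The cause was not tested. Values of members at a few CPM, such as FANCB and RAD51D, rest on the fewest reads.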
